A study of Mus musculus with 18 samples.

Results

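Nppa, Nppb, Myh6, Myh7 and Acta1 are the natriuretic peptide and sarcomere genes whose levels are commonly read as a return of the heart to a foetal pattern of expression. These 5 genes were chosen by symbol from the 24421 symbols counted in each of 18 left-ventricle libraries, and all 5 passed the filter on low counts that left 13859 genes for testing. The libraries came from C57BL/6 mice on 3 backgrounds: young wild-type (WT) mice aged 3 to 4 months, aged WT mice of 24 to 26 months, and mice of 3 to 4 months lacking Sesn2 (Sesn2-KO), which encodes the stress-induced protein sestrin 2. Each background gave 3 hearts after sham surgery, in which the chest was opened without closing the artery, and 3 hearts after ischaemia and reperfusion (IR), made by tying off the left anterior descending coronary artery for 45 min and letting blood back in for 24 h. Young WT mice were bought from 1 supplier, aged WT mice from another, and Sesn2-KO mice were bred by the authors, so the source of the mice cannot be told apart from age or from genotype. The kind of Sesn2 allele, litters and days of surgery are not given in the labels, and Sesn2-KO mice were young, so no group was both aged and lacking Sesn2. In whole ventricle, fewer cells of a type and less RNA per cell cannot be told apart.

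Nppa and Nppb encode the precursors of atrial and B-type natriuretic peptide, hormones that heart muscle cells release when stretched and that act through the receptor NPR1. Myh6 and Myh7 encode the fast alpha and the slow beta myosin heavy chain: the adult mouse ventricle is built mostly with alpha, and the foetal ventricle with beta. Acta1 encodes skeletal alpha-actin, which is abundant in the foetal heart and gives way to the cardiac actin of Actc1. Under load or after injury, the peptides, Myh7 and Acta1 are known to return while Myh6 declines.

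The 2 peptide genes are neighbours, as are the 2 myosin genes. On GRCm38, Nppb (chr4:147985788-147987205) lies 13516 bases before Nppa (chr4:148000722-148002079), both on the plus strand. Sesn2 lies on the same chromosome (chr4:132492032-132510501). Myh6 (chr14:54941921-54966927) and Myh7 (chr14:54970684-54994626) lie on the minus strand with 3756 bases between them, and Acta1 (chr8:123891769-123894751) is on the minus strand of another chromosome. Sequence before a RefSeq start of each gene is given here because Nppa, Nppb and Acta1 varied together from heart to heart and Myh6 varied against them. The part of these sequences in that was not tested. Each window is the 250 bases before a transcript start in RefSeq on GRCm38.p6, and runs 5′ to 3′ on the strand of the gene. The gene positions above are GENCODE's, and the 2 annotations place the start differently for Nppb (147985900 in RefSeq), Myh6 (54966607) and Acta1 (123894775). Bases of a window that GENCODE puts in an exon of the gene are not printed, which leaves out 112 bases next to the RefSeq start of Nppb and 34 next to that of Myh6. By GENCODE the printed Myh6 bases lie within the gene, not before it. Capitals mark 4 motifs searched on both strands: the TATA box TATAAA, the letters GATA to which GATA factors bind, the M-CAT element CATTCC to which TEAD factors bind, and the CArG box of serum response factor.
Nppa chr4:148000472-148000721: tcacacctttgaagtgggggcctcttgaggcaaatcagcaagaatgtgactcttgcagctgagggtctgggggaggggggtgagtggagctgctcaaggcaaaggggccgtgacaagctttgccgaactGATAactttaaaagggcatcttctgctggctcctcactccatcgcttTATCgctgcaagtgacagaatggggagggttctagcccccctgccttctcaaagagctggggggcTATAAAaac
Nppb chr4:147985650-147985787: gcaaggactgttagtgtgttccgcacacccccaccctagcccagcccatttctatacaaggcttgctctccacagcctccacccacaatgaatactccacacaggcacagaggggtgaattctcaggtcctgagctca
Acta1 chr8:123894776-123895025: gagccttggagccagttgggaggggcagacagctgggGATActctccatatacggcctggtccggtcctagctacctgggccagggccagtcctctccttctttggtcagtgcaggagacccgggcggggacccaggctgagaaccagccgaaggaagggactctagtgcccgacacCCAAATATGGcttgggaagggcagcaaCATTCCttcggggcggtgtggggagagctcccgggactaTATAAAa
Myh6 chr14:54966642-54966857: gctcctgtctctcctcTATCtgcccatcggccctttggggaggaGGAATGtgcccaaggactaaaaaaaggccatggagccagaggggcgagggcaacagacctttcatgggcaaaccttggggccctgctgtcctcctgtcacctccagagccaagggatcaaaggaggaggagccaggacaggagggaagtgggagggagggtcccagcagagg
Myh7 chr14:54994627-54994876: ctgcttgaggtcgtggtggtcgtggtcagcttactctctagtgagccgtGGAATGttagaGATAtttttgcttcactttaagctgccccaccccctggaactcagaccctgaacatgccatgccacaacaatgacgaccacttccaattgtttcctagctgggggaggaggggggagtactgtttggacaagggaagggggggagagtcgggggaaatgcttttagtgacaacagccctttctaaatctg
Counting back from -1, the base before the RefSeq start, the Nppb window held TATAAA from -31, GATA from -94 and from -83, and an M-CAT element on the opposite strand from -105, all among the bases not printed. Nppa held TATAAA from -9, GATA from -121 and, on the opposite strand, from -74. Acta1 held the only CArG box of these windows, from -73, with an M-CAT element from -46, GATA from -213 and TATAAA from -7. Myh6 and Myh7 each held 1 GATA and 1 M-CAT element, and neither held TATAAA or a CArG box in the window shown; RefSeq gives Myh7 a second start close by, 54994549, whose overlapping window held none of the motifs. Among 32851 such windows, 12.4% held the TATA box, 53.6% held GATA, 12.6% an M-CAT element and 1.47% a CArG box, so the CArG box is the least common of the 4. GATA is short, and the letters of 2 motifs did not overlap in these windows. A match describes letters only and is no evidence of binding.

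Libraries held 9404531 to 14458047 counts in genes, and no member had fewer than 700 counts in any heart, so counting error was small beside the spread between hearts. Sesn2 stood at 2.50 to 6.03 CPM (counts scaled to a library total of 1000000) in the 12 WT hearts and at 0 to 0.362 CPM, at most 5 counts, in the 6 Sesn2-KO hearts. The cardiac identity of the tissue was plain: 10 cardiomyocyte markers other than Myh6 summed to 34224 to 43175 CPM in every heart, against 29.4 to 60.5 CPM for 12 skeletal muscle markers. Hearts after IR had a sum of 8 neutrophil markers of 64.0 to 174 CPM, with all 8 detected in each. In sham hearts the same sum was 5.26 to 7.46 CPM in young WT, 6.43 to 19.3 CPM in aged WT and 38.1 to 89.8 CPM in Sesn2-KO, so sham Sesn2-KO hearts stood above both WT sham groups in this sum. The part of these cells in the results was not tested. An earlier analysis of these data set apart 6 libraries (young WT sham 1 and IR 3, aged WT sham 1 and IR 3, Sesn2-KO sham 3 and IR 3) for higher counts in long than in short transcripts. Across genes, the rank correlation of a library's deviation from its group mean with transcript length was 0.31 to 0.48 in these 6 and -0.43 to -0.015 in the others. With 1 of 3 libraries set apart in each group, a high value in it lowers the others, so this contrast was partly fixed by the choice. For deviations from the mean of all libraries, the slope on log2 transcript length was 0.0575 to 0.175 in the 6. In the others it was -0.124 to 0.0593, so the ranges just overlapped. Genes are not independent, and these values are a description. Calls that were lost without these 6 length-tilted libraries are named as such with the result.

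**Figure D1:**
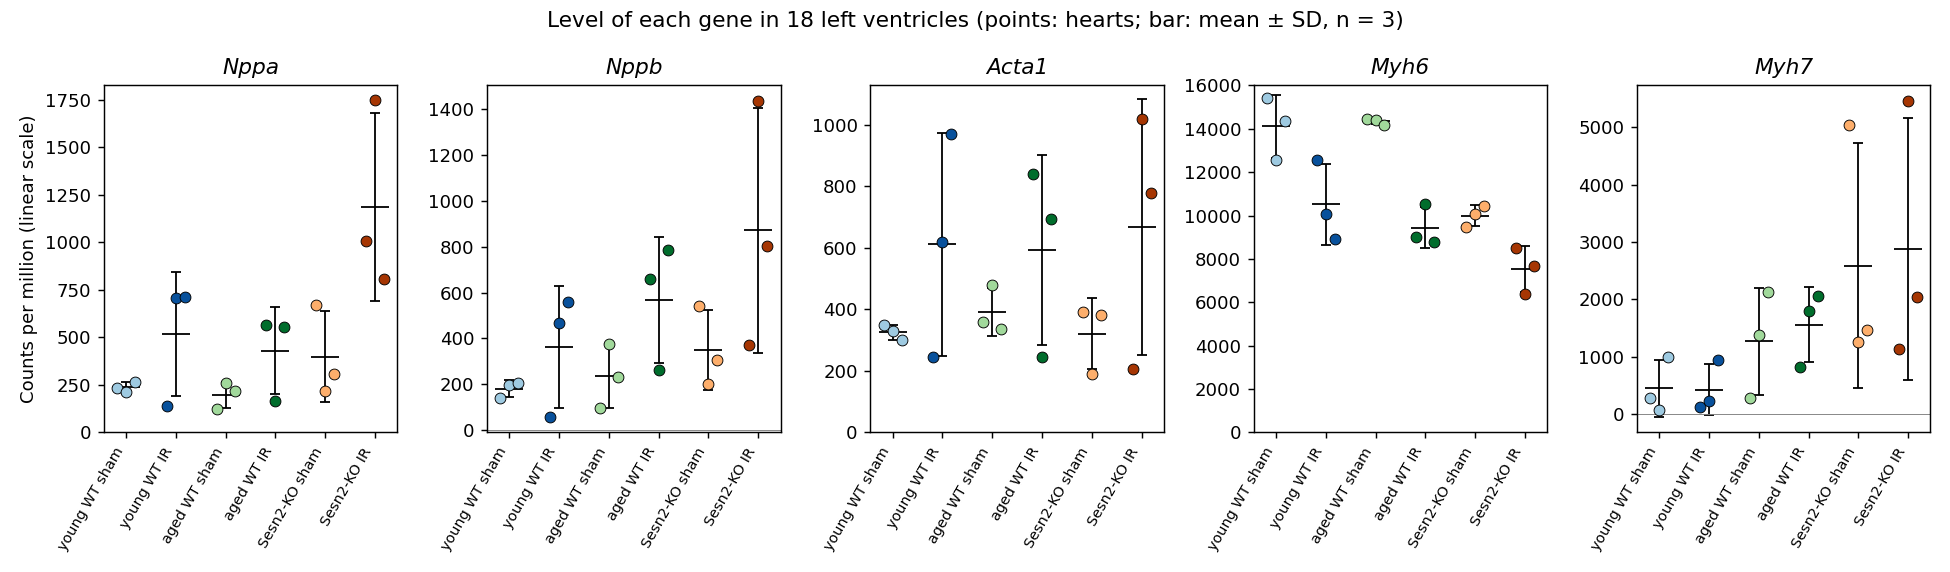
Level of each gene in CPM (linear axis) in the 18 hearts, with 1 point a heart and the mean ± SD of each group of 3. Myh6 lies within a range of 2.42-fold over all hearts, whereas Myh7 covers 76.9-fold and overlaps between most groups.

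Nppa, the gene of atrial natriuretic peptide, rose 2.37-fold after IR when the 3 backgrounds were averaged. In young WT, sham hearts held 231, 211 and 266 CPM and IR hearts 139, 704 and 710 CPM. In aged WT, the values were 124, 257 and 216 CPM after sham surgery and 567, 164 and 553 CPM after IR. In both WT backgrounds, 2 of 3 IR hearts stood above every sham heart and 1 lay among or below them, so the groups overlapped. Sesn2-KO sham hearts held 671, 217 and 309 CPM and Sesn2-KO IR hearts 1008, 1747 and 807 CPM. Here every IR heart exceeded every sham heart, and all 3 also exceeded every IR heart of the other backgrounds. In order of mean level, aged WT sham (199 ± 68.3 CPM, SD, n = 3) and young WT sham (236 ± 27.7) were lowest, followed by Sesn2-KO sham (399 ± 240), aged WT IR (428 ± 229), young WT IR (518 ± 328) and Sesn2-KO IR (1187 ± 495). Of the neighbours in that order, only young WT IR and Sesn2-KO IR did not overlap.

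The log2 fold change of Nppa averaged over the backgrounds was 1.24 ± 0.32 (SE), with an adjusted p of 0.00965 by edgeR's quasi-likelihood test. Of the 13859 genes tested, 26.7% were called in this averaged comparison, 15.8% as higher and 10.9% as lower; of the 5 members, Nppa and Nppb were called higher and Myh6 lower. Leaving out each heart in turn gave 1.12 to 1.44 and kept the call each time, while without the 6 length-tilted libraries the value was 0.98 and was no longer called (adjusted p = 0.198). Within a background the estimates were 1.10 in young WT (adjusted p = 0.274), 1.11 in aged WT (0.238) and 1.53 in Sesn2-KO (0.238), none of them called by edgeR. Between backgrounds, over both kinds of surgery, Nppa differed by 0.96 ± 0.39 for Sesn2-KO against young WT (adjusted p = 0.133), 1.20 ± 0.39 for Sesn2-KO against aged WT (0.0922) and -0.24 ± 0.39 for aged against young WT (1.0), and in IR hearts alone by 1.18 (0.389) and 1.41 (0.562) for the first and the second of these. The differences between these IR responses were 0.01 ± 0.77 for aged against young WT, 0.43 ± 0.77 for Sesn2-KO against young WT and 0.42 ± 0.77 for Sesn2-KO against aged WT. Their intervals ran from -1.50 to 1.52, from -1.08 to 1.94 and from -1.09 to 1.94 on the log2 scale, wide enough to hold a response 2 times as large in either background.

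Atrial tissue is rich in Nppa, and 10 atrial markers were read beside it. Their sum was 100 to 283 CPM in 17 of the hearts and 812 CPM in Sesn2-KO IR 1. There the atrial light chains Myl7 and Myl4 stood at 255 and 242 CPM and Sln at 105 CPM, with Bmp10 at 0. In the other hearts Kcnj3, at 52.6 to 149 CPM, was the largest part of the sum. Sesn2-KO IR 3 held 39.0 CPM of Myl7 and 41.4 of Myl4, against at most 1.67 and 3.43 CPM in WT IR hearts. Some sham hearts were similar, such as young WT sham 1 with 37.2 and 45.9 CPM. In Sesn2-KO IR 1 Nppa exceeded Nppb 2.44-fold per kb of transcript, against 0.571 to 2.16 in the other hearts. Without Sesn2-KO IR 1 the averaged IR value of Nppa was 1.27 (adjusted p = 0.0109 by edgeR), and the Sesn2-KO IR value was 1.62 (0.162). Sesn2-KO IR 2, with the highest Nppa of the series, had the lowest atrial marker sum, 100 CPM, and also the lowest Kcnj3. Its Myl7 was 0.501 CPM, and its Myl4, at 7.09 CPM, stood above the WT IR hearts. The part of atrial tissue in Nppa was not tested.

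Nppb, the gene of B-type natriuretic peptide, rose after IR by 2.25-fold on average. Young WT sham hearts held 137, 196 and 207 CPM and young WT IR hearts 58.3, 465 and 560 CPM. The lowest Nppb of all 18 hearts was thus in an IR heart, young WT IR 1. Aged WT hearts held 95.9, 377 and 231 CPM after sham surgery and 659, 259 and 785 CPM after IR. Sesn2-KO hearts held 540, 199 and 307 CPM after sham surgery and 372, 1438 and 803 CPM after IR. Sham and IR hearts overlapped on every background. Means ran from 180 ± 37.2 CPM in young WT sham through 235 ± 140 in aged WT sham, 349 ± 174 in Sesn2-KO sham, 361 ± 266 in young WT IR and 568 ± 274 in aged WT IR to 871 ± 536 in Sesn2-KO IR, and no neighbours in this order differed beyond their spread.

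The averaged log2 fold change of Nppb was 1.17 ± 0.39, with an adjusted p of 0.0356 by edgeR. Leaving out any 1 of 11 of the 18 hearts ended the call, with an adjusted p of up to 0.0871, and the value ranged from 0.98 to 1.34; those hearts were young WT sham 1 and 2, young WT IR 2 and 3, aged WT sham 1 and 3, aged WT IR 1 and 3, and Sesn2-KO sham 2 and 3 and IR 2. The call was also lost with no filter on low counts (adjusted p = 0.0926), without the length-tilted libraries, where the value was 0.70 (0.439), and with the length slope in the model (0.0559). Single backgrounds gave 0.96 (young WT), 1.28 (aged WT) and 1.27 (Sesn2-KO), with adjusted p by edgeR of 0.465, 0.267 and 0.394. Over both kinds of surgery Nppb differed by 1.10 ± 0.48 for Sesn2-KO against young WT (adjusted p = 0.162 by edgeR), 0.55 ± 0.47 for Sesn2-KO against aged WT (0.554) and 0.54 ± 0.47 for aged against young WT (0.977), so no background was called apart in either peptide.

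Myh6, the alpha myosin heavy chain, was the member with the steadiest values and the lowest p after IR. Young WT sham hearts held 15434, 12574 and 14357 CPM and young WT IR hearts 12544, 10086 and 8908 CPM. In aged WT the sham hearts stood at 14440, 14415 and 14199 CPM and the IR hearts at 9005, 10539 and 8776 CPM. Every IR heart on these backgrounds lay below every sham heart, although young WT IR 1 was only just below the lowest young sham heart. Sesn2-KO hearts began lower, at 9476, 10074 and 10443 CPM after sham surgery, and stood at 8493, 6391 and 7686 CPM after IR, again without overlap. Sesn2-KO sham hearts overlapped with the IR hearts of young and aged WT. Group means were, in increasing order, Sesn2-KO IR (7523 ± 1060 CPM), aged WT IR (9440 ± 958), Sesn2-KO sham (9998 ± 488), young WT IR (10513 ± 1855), young WT sham (14122 ± 1444) and aged WT sham (14351 ± 132). Sesn2-KO IR against aged WT IR, and young WT IR against young WT sham, were the neighbours that did not overlap.

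Averaged over the backgrounds, Myh6 fell by 0.50 on the log2 scale after IR (SE 0.09, 0.709 of the sham level, adjusted p = 0.000968 by edgeR), and the call held without any 1 heart (-0.56 to -0.46) and without the length-tilted libraries. Among single backgrounds it was called in aged WT (-0.59 ± 0.16, adjusted p = 0.0312 by edgeR), where 7.61% of genes were called and 2.24% as lower; this call was lost when any 1 of aged WT sham 1, 2 or 3 or aged WT IR 1 or 3 was left out, with an adjusted p of up to 0.136, and without the length-tilted libraries (-0.56, adjusted p = 0.192). In young WT the value was -0.44 (adjusted p = 0.108) and no member was called, while 6.07% of genes were; Myh6 was under 0.05 before adjustment, and DESeq2 called it. Without young WT IR 1 the young value was -0.62 (adjusted p = 0.0192 by edgeR). In Sesn2-KO the value was -0.46 (adjusted p = 0.219). There edgeR called 0 of the 13859 genes, 0% of them, although 2037 had an unadjusted p below 0.05, Nppa and Myh6 among them; DESeq2 called 83 genes higher and 57 lower, none of them a member. As a background for the separated groups, 22.4% of the 13058 genes averaging 1 CPM or more did not overlap between sham and IR in young WT, 29.0% in aged WT and 18.3% in Sesn2-KO; of the members these were Myh6 on all 3 backgrounds and Nppa in Sesn2-KO.

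Myh6 also stood lower in Sesn2-KO hearts. Against young WT, its log2 difference was -0.50 in sham hearts (adjusted p = 0.0786 by edgeR) and -0.52 in IR hearts (0.183). Against aged WT it was -0.53 in sham hearts (0.0898) and -0.40 in IR hearts (0.554). Averaged over both kinds of surgery, a comparison added after seeing the data, Myh6 was lower by -0.51 ± 0.11 (adjusted p = 0.00934 by edgeR), and leaving out each heart kept the call (-0.56 to -0.42, adjusted p up to 0.0314). Against aged WT the averaged difference was -0.46 ± 0.11 (adjusted p = 0.0290), a call lost when any 1 of 7 of the 12 hearts was left out (aged WT sham 1, 2 or 3, aged WT IR 2, Sesn2-KO sham 1 or 2, Sesn2-KO IR 2; adjusted p up to 0.0815) and without the length-tilted libraries (-0.53, adjusted p = 0.109). Aged and young WT differed by -0.04 ± 0.11, with an interval of -0.26 to 0.17. The IR response of Myh6 differed by -0.15 ± 0.22 between aged and young WT (interval -0.58 to 0.28), by -0.02 ± 0.22 between Sesn2-KO and young WT (-0.45 to 0.41) and by 0.13 ± 0.22 between Sesn2-KO and aged WT (-0.31 to 0.56).

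Other heart-muscle genes were read beside Myh6. The 10 other cardiomyocyte markers summed to 42591 to 43059 CPM in young WT sham and 41015 to 43175 CPM in aged WT sham, against 36554 to 38623 CPM in Sesn2-KO sham hearts. After IR the sum was 36856 to 38791 CPM in young WT, 36322 to 40715 CPM in aged WT and 34224 to 37955 CPM in Sesn2-KO. It was thus also lower after IR in young and aged WT, and lower in Sesn2-KO sham than in WT sham hearts. Sesn2-KO IR hearts overlapped in it with Sesn2-KO sham hearts and with the IR hearts of both WT backgrounds. Divided by that sum, Myh6 was still lower after IR, by -0.35 on the log2 scale (0.783 of the sham ratio, exact two-sided permutation within backgrounds, p = 0.0005, Benjamini-Hochberg 0.002 over 4 comparisons). The same ratio was lower in Sesn2-KO than in young WT by -0.35 and than in aged WT by -0.30, each with the smallest p the exact permutation allows, 0.005 (adjusted 0.00667), and differed between aged and young WT by -0.05 (exact p = 0.56). This ratio was added after seeing the data.

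Myh7, the beta myosin heavy chain, varied more between hearts of 1 group than between most groups. Young WT sham hearts held 273, 71.0 and 1002 CPM, and young WT IR hearts 123, 224 and 941 CPM. Aged WT hearts held 284, 1386 and 2134 CPM after sham surgery and 824, 1798 and 2054 CPM after IR. Sesn2-KO hearts held 5042, 1258 and 1464 CPM after sham surgery and 1137, 5459 and 2049 CPM after IR. All 6 Sesn2-KO hearts stood above all 6 young WT hearts, aged WT overlapped with both, and sham and IR overlapped on each background. How many of all genes separated these 12 hearts in this way was not counted. Sesn2-KO and young WT did not overlap in 25.2% of genes in sham hearts and in 12.4% in IR hearts. The order of the means was young WT IR (430 ± 446 CPM), young WT sham (449 ± 490), aged WT sham (1268 ± 931), aged WT IR (1559 ± 649), Sesn2-KO sham (2588 ± 2128) and, highest, Sesn2-KO IR (2882 ± 2278), and no neighbours differed beyond their spread.

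A change of Myh7 after IR was not detectable beside its spread. The averaged log2 fold change was 0.11 ± 0.54 with an interval of -0.96 to 1.17 (adjusted p = 0.908 by edgeR), and it was -0.69 without the length-tilted libraries. Single backgrounds gave -0.11 ± 0.94 in young WT, 0.32 ± 0.94 in aged WT and 0.10 ± 0.94 in Sesn2-KO. Between backgrounds, Myh7 was higher in Sesn2-KO than in young WT by 2.61 ± 0.70 on the log2 scale over both kinds of surgery, or 6.11-fold (adjusted p = 0.0291 by edgeR). In this added comparison 9.72% of genes were called, 5.69% as higher and 4.03% as lower, and of the members Myh7 was called higher and Myh6 lower. Leaving out any 1 of young WT sham 1, young WT IR 1 or 2, Sesn2-KO sham 1 or Sesn2-KO IR 2 ended the call of Myh7 (adjusted p up to 0.0834), with values of 2.16 to 3.32 over all hearts left out. The call of Myh7 was also lost with no filter on low counts (2.60, adjusted p = 0.0765), with the length slope as covariate (2.67, 0.061), with only the groups compared (2.59, 0.0549) and without the length-tilted libraries (3.36, 0.063). Within sham and within IR hearts the Myh7 differences were 2.51 (adjusted p = 0.171) and 2.72 (0.271), neither called by edgeR. Aged WT stood above young WT by 1.70 ± 0.68 (unadjusted p = 0.0238, adjusted p = 0.555 by edgeR), and 0 members were called in that averaged comparison, in which 0.469% of genes were, by edgeR or by DESeq2. Sesn2-KO and aged WT differed in Myh7 by 0.91 ± 0.67 (adjusted p = 0.483), with 4.13% of genes called, 1.73% as lower, and Myh6 the 1 member among them.

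Single comparisons between backgrounds called no member with edgeR. The share of genes called was 5.11% for Sesn2-KO against young WT in sham hearts and 0.433% in IR hearts, 2.32% and 0.0722% for Sesn2-KO against aged WT, and 0.152% and 0.0649% for aged against young WT. At an unadjusted p below 0.05, edgeR had 2 members (Myh6 and Myh7) for Sesn2-KO against young WT in sham hearts and 3 (those and Nppa) in IR hearts. Against aged WT the numbers were 1 (Myh6) in sham hearts and 2 (Nppa and Myh6) in IR hearts, and for aged against young WT 0 in both. DESeq2 called Myh6 in the first, the second and the third of these 4 Sesn2-KO comparisons and no other member. Groups that did not overlap made up 25.2% of genes for Sesn2-KO against young WT in sham hearts (Myh6 lower and Myh7 higher among the members) and 12.4% in IR hearts (the same 2 and Nppa higher). Against aged WT they made up 24.1% in sham hearts (Myh6) and 12.5% in IR hearts (Nppa higher, Myh6 lower), and for aged against young WT 12.1% and 7.78%, with no member. For the difference in IR response between backgrounds, edgeR and DESeq2 called 0 members in each of 3 comparisons, and edgeR had 0 at an unadjusted p below 0.05. There edgeR called 0% of genes for aged minus young WT (152 at an unadjusted p below 0.05; DESeq2 called 0), 0.0577% for Sesn2-KO minus young WT and 0.0505% for Sesn2-KO minus aged WT.

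**Figure D2:**
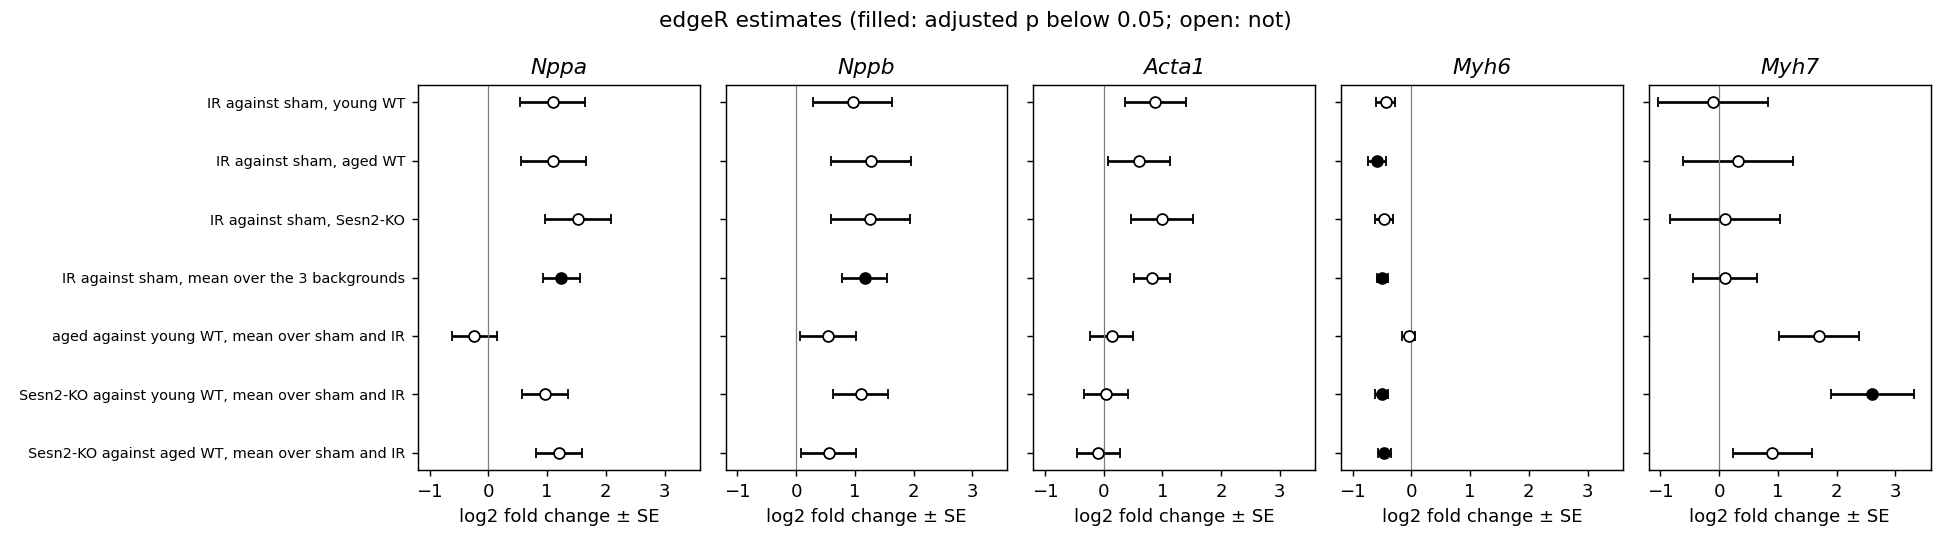
Log2 fold change ± SE of each gene (x axis) in the IR comparisons and in the differences between backgrounds averaged over both kinds of surgery (rows), from edgeR. Filled points have an adjusted p below 0.05: Nppa, Nppb and Myh6 in the averaged IR comparison, Myh6 in aged WT IR, Myh6 and Myh7 in Sesn2-KO against young WT, and Myh6 in Sesn2-KO against aged WT.

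The ratio of Myh7 to Myh6, each divided by transcript length (6.23 and 6.113 kb), gives the balance of the 2 chains in a heart. It was 0.0174, 0.00554 and 0.0685 in young WT sham hearts and 0.00965, 0.0218 and 0.104 in young WT IR hearts. Aged WT hearts had ratios of 0.0193, 0.0943 and 0.147 after sham surgery and 0.0898, 0.167 and 0.230 after IR. Sesn2-KO hearts had 0.522, 0.123 and 0.138 after sham surgery and 0.131, 0.838 and 0.262 after IR. Myh6 thus remained the more abundant chain per kb in all 18 hearts, and in Sesn2-KO IR 2 the ratio came nearest to 1. All 6 Sesn2-KO hearts had a higher ratio than the highest of the 6 young WT hearts. How often ratios of other genes separated these hearts was not counted.

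Over both kinds of surgery, the ratio was 11.0-fold higher in Sesn2-KO than in young WT (log2 difference 3.46, exact two-sided permutation within surgery, p = 0.005, the smallest it allows, adjusted 0.02 over 4 comparisons). It was 4.31-fold higher in aged than in young WT (log2 difference 2.11, exact p = 0.035, adjusted 0.07), which missed the threshold after adjustment. Before adjustment too, it passed the threshold no longer when any 1 of 8 of the 12 hearts was left out, all but young WT sham 3 and IR 3 and aged WT sham 1 and IR 1 (exact p up to 0.09). Sesn2-KO exceeded aged WT 2.55-fold (log2 difference 1.35, exact p = 0.085, adjusted 0.113), and IR exceeded sham 1.73-fold (log2 difference 0.79, exact p = 0.228). Without the 6 length-tilted libraries the log2 difference for IR was 0.0076 (exact permutation p = 0.991). With medians in place of means, that of Sesn2-KO against aged WT was 0.594. Within 1 kind of surgery, 3 hearts against 3 cannot go below p = 0.1, which Sesn2-KO against young WT reached in sham and in IR hearts alike (11.0-fold in both, exact permutation). The summed level of both chains per kb was 2068 to 2569 CPM in young WT sham, 2408 to 2665 in aged WT sham, 1850 to 2360 in Sesn2-KO sham, and 1572 to 2072 in all IR hearts, so that sum was below every WT sham heart in 8 of 9 IR hearts.

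**Figure D3:**
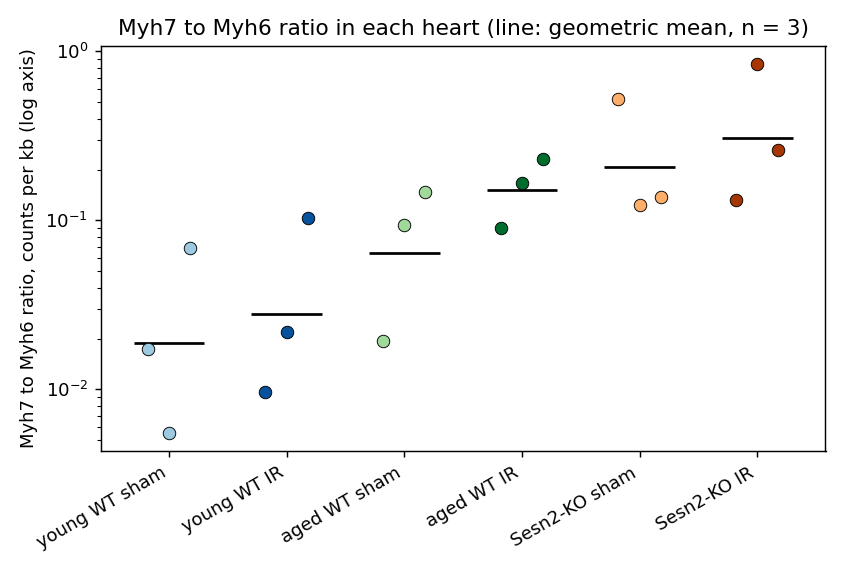
Ratio of Myh7 to Myh6 in counts per kb of transcript (log axis) in each heart, with lines at the geometric mean of each group of 3. The 6 Sesn2-KO hearts (0.123 to 0.838) lie above the 6 young WT hearts (0.00554 to 0.104), and aged WT hearts (0.0193 to 0.230) overlap with both.

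Mhrt, a long RNA transcribed antisense to Myh7, was looked at after its values were seen, because without a known strand setting its reads and those of Myh7 cannot be told apart where they overlap (5.62% of Myh7 exon bases). Its sham values were 74.3, 78.2 and 54.7 CPM in young WT, 52.3, 46.0 and 42.0 CPM in aged WT and 31.5, 29.6 and 27.9 CPM in Sesn2-KO. IR hearts held 40.3, 35.2 and 25.4 CPM, 33.6, 23.2 and 27.1 CPM, and 27.4, 23.2 and 24.5 CPM in the same order. Mhrt fell by 0.69 on the log2 scale after IR over the 3 backgrounds (adjusted p = 0.000178 by edgeR), as Myh6 did, while Myh7 was not called. It was lower in Sesn2-KO than in young WT by -0.84 (adjusted p = 0.00062), where Myh7 was higher. Nppa overlaps on 61.5% of its exon bases with another annotated antisense gene, Gm13054, which has no counts of its own in the files, and reads of these 2 genes cannot be told apart either.

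Acta1, the skeletal actin gene, followed the peptides in most hearts but missed the threshold. Young WT sham hearts held 349, 329 and 299 CPM and young WT IR hearts 245, 620 and 971 CPM. Aged WT hearts held 359, 479 and 335 CPM after sham surgery and 840, 246 and 695 CPM after IR. Sesn2-KO hearts held 392, 189 and 383 CPM after sham surgery and 206, 1019 and 778 CPM after IR. On each background 2 of 3 IR hearts stood above every sham heart and the other lay below all or most of them. Group means were 321 ± 114 CPM in Sesn2-KO sham, 326 ± 24.7 in young WT sham, 391 ± 77.2 in aged WT sham, 594 ± 310 in aged WT IR, 612 ± 363 in young WT IR and 668 ± 418 in Sesn2-KO IR, and no neighbours differed beyond their spread.

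The averaged IR value of Acta1 was 0.82 ± 0.30 (1.77-fold, unadjusted p = 0.015, adjusted p = 0.0544 by edgeR), with 0.88 ± 0.53 in young WT, 0.60 ± 0.52 in aged WT and 0.99 ± 0.53 in Sesn2-KO. It was called without young WT IR 1 (0.95, adjusted p = 0.0192), without aged WT IR 2 (0.94, 0.0237) or without Sesn2-KO IR 1 (0.97, 0.0115), the 3 IR hearts with the lowest Acta1, and with the length slope as covariate (0.94, 0.0377). Between backgrounds Acta1 differed little, by 0.04 ± 0.37 for Sesn2-KO against young WT, 0.13 ± 0.37 for aged against young WT and -0.09 ± 0.37 for Sesn2-KO against aged WT, with an interval of -0.68 to 0.76 for the first. Its cardiac counterpart Actc1 stood at 2661 to 5735 CPM over the 18 hearts and was not called after IR (-0.15 ± 0.12, adjusted p = 0.383). Per kb, mean Acta1 was 225 CPM against 3435 CPM for Actc1 in young WT sham hearts and 462 against 3208 CPM in Sesn2-KO IR hearts, so Actc1 remained the more abundant actin. Acta1 and Actc1 are close paralogues, as are Myh6 and Myh7, and reads shared by them are uncertain.

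The same few hearts stood out in several of the genes. Young WT IR 1 had the lowest Nppb of the series, and its Nppa, Acta1 and Myh7 were below the lowest or middle young sham heart while its Myh6 was the highest of all IR hearts. Aged WT IR 2 likewise had the lowest Nppa, Nppb and Acta1 and the highest Myh6 of its group. Their neutrophil marker sums, 64.0 and 93.8 CPM, were the lowest of their groups but far above the WT sham hearts. Sesn2-KO IR 1 had the lowest Nppb, Acta1, Myh7 and neutrophil sum (88.4 CPM) and the highest Myh6 of its group, but not the lowest Nppa. At the other end, Sesn2-KO sham 1 had the highest Nppa, Nppb, Acta1 and Myh7 of its group and the lowest Myh6, with the highest neutrophil sum among sham hearts, 89.8 CPM.

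Deviations of each heart from its group mean on the log2 scale were therefore compared between genes over the 18 hearts, in 10 pairs, with permutations within groups. Nppa and Nppb varied together most closely (Pearson r = 0.91, permutation p = 0.00141, adjusted 0.0047; Spearman rho = 0.91, permutation p = 0.00135), with r = 0.85 without the 2 hearts farthest from the median, young WT IR 1 and aged WT IR 2. Nppb also varied with Acta1 (r = 0.83, adjusted permutation p = 0.0047, rho = 0.75, r = 0.86 without 2 hearts) and against Myh6 (r = -0.82, adjusted permutation p = 0.0047, rho = -0.81, r = -0.80 without 2 hearts). Nppa varied in the same way with Acta1 (r = 0.74, adjusted permutation p = 0.0255, rho = 0.68, r = 0.56 without 2 hearts) and against Myh6 (r = -0.73, adjusted permutation p = 0.0255, rho = -0.77, r = -0.55 without 2 hearts). Myh6 and Acta1 varied in opposite directions (r = -0.78, adjusted permutation p = 0.0213, rho = -0.70, r = -0.69 without 2 hearts). Myh7 varied with both peptides, with Nppb (r = 0.60, adjusted permutation p = 0.0349, rho = 0.66, r = 0.47 without 2 hearts) and with Nppa (r = 0.53, adjusted permutation p = 0.0389, rho = 0.59, r = 0.60 without 2 hearts). Myh6 and Myh7, the 2 chains usually described as exchanging, did not pass the threshold within groups (r = -0.35, adjusted permutation p = 0.251, rho = -0.34, r = -0.16 without 2 hearts). Myh7 and Acta1 gave r = 0.39 (adjusted permutation p = 0.13, rho = 0.39, r = 0.50 without 2 hearts). All values share a library total within a heart. The transcripts of Nppa (0.865 kb), Nppb (0.781 kb) and Acta1 (1.446 kb) are shorter than those of Myh6 (6.113 kb) and Myh7 (6.23 kb). The pairs were not repeated without the length-tilted libraries, so a part of transcript length in them was not tested.

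**Figure D4:**
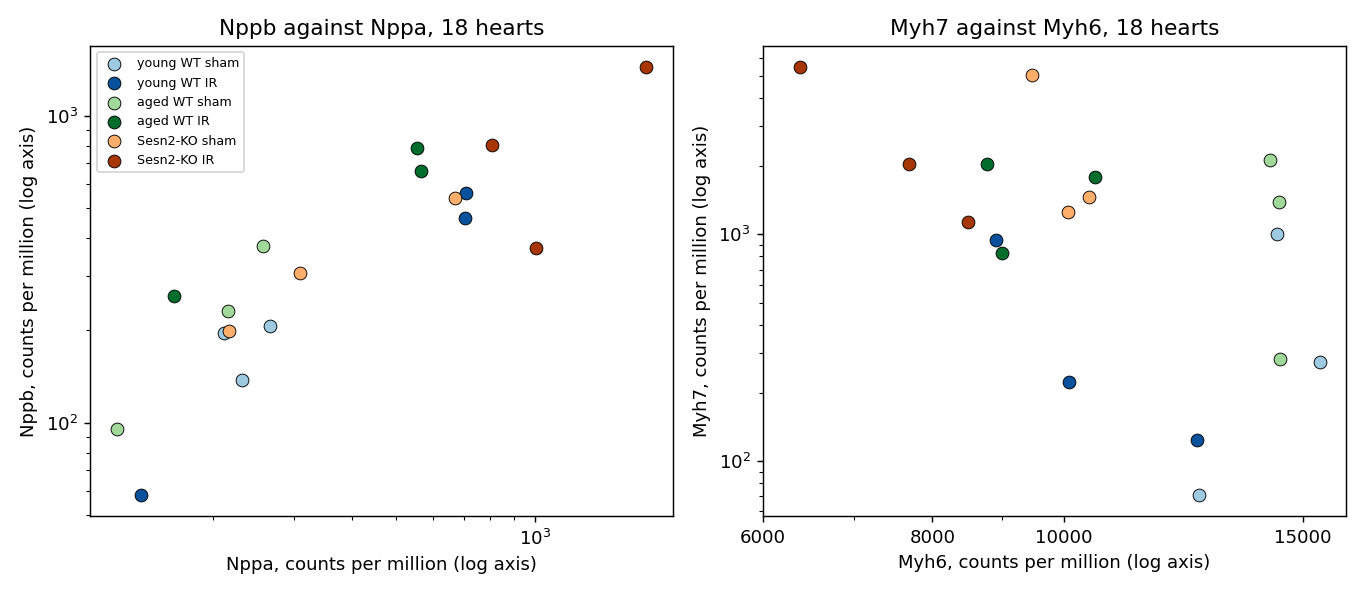
Nppb against Nppa (left) and Myh7 against Myh6 (right) in CPM on log axes, 1 point for each of the 18 hearts, coloured by group. Within groups Nppa and Nppb move together (r = 0.91), while the relation of Myh7 to Myh6 (r = -0.35) did not pass the threshold.

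The spread of these genes between hearts of 1 group was itself unusual. Among 2130 genes averaging 100 CPM or more, the within-group SD on the log2 scale was 1.37 for Myh7 (the third highest), 1.03 for Nppb (rank 5), 0.82 for Nppa (rank 15) and 0.79 for Acta1 (rank 19), against a median of 0.19 and a 95th percentile of 0.42. Myh6, with 0.18, ranked 1172. These are descriptions with no test. A 1-SD step within a group was 2.58-fold for Myh7 and 1.13-fold for Myh6, so a given fold change was larger beside the spread in Myh6 than in Myh7.

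Genes whose log2 CPM followed each member most closely over the 18 hearts were picked by Pearson r among 9359 genes averaging 10 CPM or more. For Nppa they were Spred1 (r = 0.94), Phlda3 (0.92), Adss (0.91) and Csgalnact1 (0.91). For Nppb the closest was Tnfrsf12a (0.96), the receptor of the cytokine TWEAK, which ran from 29.1 to 376 CPM, followed by Cox19 (0.94), Pdlim1 (0.91) and Pmepa1 (0.91). Myh6 was followed by Pfkm, muscle phosphofructokinase (0.98, 661 to 1395 CPM), Rbfox1, a splicing factor of muscle and nerve (0.97), Aldh5a1 (0.97) and Stau2 (0.97). The genes most like Myh7 were less close, Edn3, which encodes endothelin 3 (0.90, 1.08 to 38.7 CPM), Casp12 (0.83), Cpeb1 (0.83) and Ankrd1 (0.79). Acta1 was followed by Wdr1, an actin-disassembly factor (0.93), Fam49b (0.93), Tspan9 (0.93) and Ehd4 (0.92). These values are over all hearts, include the differences between groups, share library totals and carry no test.

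Beyond the 5 members, genes of the natriuretic peptide pathway that were called after IR were lower. Of 15 listed genes for processing, receptors and cyclic GMP signalling, 14 were tested, and in the averaged IR comparison 0 were called higher and 5 lower, with a median log2 fold change of -0.16 against 0.00 over all genes; of all genes tested, 15.8% were called higher and 10.9% lower. Pcsk6, a convertase that activates corin, fell by 0.72 (adjusted p = 0.00132 by edgeR) and Npr2, the receptor of C-type natriuretic peptide, by 0.29 (0.00552). Npr3, the clearance receptor, fell by 0.54 (0.0158), and Mme, which encodes the peptide-degrading enzyme neprilysin, fell by 0.49 (0.0396), a call of Mme lost in 11 of the 18 leave-one-out fits. Corin, the protease that cleaves the Nppa product, had -0.03 ± 0.13 (adjusted p = 0.902), Furin, a convertase of the Nppb product, 0.12 ± 0.15 (0.59; called with the length slope as covariate, 0.34, 0.00751) and Npr1, the receptor of both peptides, 0.00 ± 0.12 (0.997). Between Sesn2-KO and young WT over both kinds of surgery, 2 of the 14 were lower and 0 higher (median -0.08 against 0.01 over all genes), where 5.69% of all genes were called higher and 4.03% lower. Ide, insulin-degrading enzyme, which also degrades natriuretic peptide, was lower by -1.28 (adjusted p = 2.6e-05 by edgeR) and Pde5a, a cyclic GMP phosphodiesterase, by -0.51 (0.0484), the call of Pde5a being lost in 10 of 12 leave-one-out fits. Npr1 (-0.19 ± 0.15), Npr3 (0.32 ± 0.19), Corin (0.02 ± 0.16) and Furin (-0.07 ± 0.19) were not called there, although Furin was called lower without the length-tilted libraries (-0.35, adjusted p = 0.0447).

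Among other sarcomere genes, the counts are read against the 26.7% of all genes called after IR and the 9.72% called between Sesn2-KO and young WT. Of 15 chains of the adult ventricle, 0 were called higher after IR and 2 lower (median -0.10): Mybpc3, cardiac myosin-binding protein C, fell by 0.48 (adjusted p = 0.000306 by edgeR) and Ldb3, a Z-disc protein, by 0.27 (0.00802). None of the 15 was called between Sesn2-KO and young WT by edgeR (median -0.06), Mybpc3 included (-0.19 ± 0.09, adjusted p = 0.201); their count at an unadjusted p below 0.05 was 2, and DESeq2 called 1, Myom1. Of 13 tested chains of foetal, atrial or other muscle, 3 were called higher after IR and 1 lower (median 0.01). The tropomyosin genes Tpm3 (0.57, adjusted p = 0.000297) and Tpm2 (0.44, 0.0169) and the calponin gene Cnn1 (1.12, 0.00618) rose, and Myh7b, a slow myosin of another locus, fell by 1.19 (adjusted p = 1.71e-05 by edgeR). Tpm2 and Cnn1 are also abundant in smooth muscle. The summed smooth muscle and pericyte markers, Cnn1 among them, were lower after IR in aged WT and overlapped on the other backgrounds. The part of these cells was not tested. The atrial light chains had -1.91 ± 1.08 (Myl7) and -0.88 ± 0.61 (Myl4), neither called; without Sesn2-KO IR 1, Myl4 was called (-1.56, adjusted p = 0.0324). Between Sesn2-KO and young WT, 2 of the 13 were higher, Myl1 (0.60, adjusted p = 0.0188) and Tnnt1 (0.47, 0.0413), both genes of skeletal muscle, and 1 lower, Myh7b (-0.60, 0.0236), with a median of 0.15. The call of Tnnt1 was lost in 8 of 12 leave-one-out fits, that of Myh7b in 3 (without young WT sham 1, young WT IR 3 or Sesn2-KO sham 2) and that of Myl1 in 1, without young WT sham 1. Myl7 (3.27 ± 1.20, adjusted p = 0.0992) and Myl4 (2.26 ± 0.74, 0.0665) were not called (Myl4 was by DESeq2), and Sesn2-KO IR 1 had the highest level of both.

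Of 15 tested genes known as stress genes of the heart muscle cell, 9 were called higher after IR and 2 lower, against 15.8% and 10.9% of all genes, with a median of 0.64 against 0.00. Markers of some other cells moved with them in the whole ventricle. Of 8 fibroblast markers 5 were called higher after IR (median 0.66), of 8 macrophage markers 5 (0.52) and of 8 neutrophil markers 8 (3.08). Of 11 cardiomyocyte markers, Myh6 included, 3 were called lower (-0.15). Endothelial sums were lower after IR in young WT (1305 to 1484 CPM against 1502 to 1681 in sham). Smooth muscle and pericyte sums were lower in aged WT (499 to 558 CPM against 634 to 670). On the other backgrounds these sums overlapped between sham and IR, and T cell sums overlapped on every background. The fibroblast sum was 1521 to 2805 CPM in sham and 1865 to 4331 CPM in IR hearts, and the macrophage sum 415 to 821 CPM and 574 to 1034 CPM. The part of any of these cells in the stress genes was not tested. Ankrd2, a stretch-responsive ankyrin-repeat gene, rose by 4.28 ± 0.54 (0.561 to 48.7 CPM over the hearts, adjusted p = 6.52e-05 by edgeR), Fhl1 by 1.60 (0.000791), the small heat-shock protein gene Cryab by 0.50 (0.00103) and Ankrd1 by 0.64 (0.0216), whose call was lost without young WT IR 3 and without the length-tilted libraries. Hopx, a homeodomain cofactor of the heart, fell by 0.64 (0.000131). Between Sesn2-KO and young WT, 4 of the 15 were higher and 1 lower (median 0.30), against 5.69% and 4.03% of all genes: Gdf15, a stress-induced secreted factor, stood higher by 2.80 (adjusted p = 0.00309 by edgeR), the matricellular gene Ctgf by 1.58 (0.00506) and Ankrd1 by 0.86 (0.0306, lost in 7 of 12 leave-one-out fits), and Hopx lower by -0.63 (0.00221). In the same comparison 8 of 8 neutrophil markers (median 2.13), 2 of 8 macrophage markers (0.50) and 0 of 8 fibroblast markers (0.14) were called higher; their part here was not tested either.

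Of 31 tested transcriptional regulators of the peptide and myosin genes, 1 was called higher and 5 lower after IR (median -0.09), against 15.8% and 10.9% of all genes, among them Mef2a (-0.32, adjusted p = 0.000742 by edgeR), Nfatc2 (-0.38, 0.00566), the thyroid hormone receptor gene Thra (-0.38, 0.011) and the histone deacetylase gene Hdac4 (-0.77, 0.0315, lost in 6 of 18 leave-one-out fits). Thyroid hormone is known to favour Myh6 over Myh7 in the ventricle. Between Sesn2-KO and young WT, 0 were higher and 2 lower (median -0.03), against 5.69% and 4.03% of all genes: Thra (-0.51, adjusted p = 0.0159 by edgeR) and Mef2a (-0.24, 0.0357), the latter lost in 9 of 12 leave-one-out fits. Without the 6 length-tilted libraries, the averaged IR calls of Npr2, Mme, Ldb3, Cnn1, Tpm2, Nfatc2, Thra, Hdac4 and Ankrd1 were also lost, with adjusted p from 0.063 (Thra) to 0.442 (Mme), and so were the Sesn2-KO calls of Pde5a, Myl1 and Myh7b, with adjusted p from 0.076 (Myl1) to 0.209 (Pde5a).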

How the data were processed

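RNA of 18 left ventricles was purified on RNeasy columns and sequenced as stranded mRNA libraries, in read pairs, per the labels' protocols. The authors deposited, for each sample, whole-number counts per gene symbol, not normalized. Bowtie2, TopHat2, HTSeq, SAMtools, FastQC and the build mm10 are named per the submitters' processing notes; for these tools, the versions, the annotation and the strand setting were not given in the sources used here. The 2 summary lines, for reads outside genes (6.12% to 9.06%) and ambiguous reads (0.631% to 0.759%), were left out of library totals.

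CPM is a count over the total of gene rows. CPM per kb uses the longest transcript in GENCODE M21, where 95.5% of symbols were found once. Tests used edgeR 4.0.16 in R 4.3.3: filterByExpr, TMM factors (0.951 to 1.046), 1 mean per group over the 18 libraries, and robust quasi-likelihood fits. P-values were adjusted by Benjamini-Hochberg within each comparison over all genes tested, and a gene was called below 0.05. A value after ± is an SE for log2 fold changes and an SD for CPM. Intervals are nominally 95%, taken as 1.96 SE to each side. This normal multiplier makes them somewhat narrower than the edgeR p-values imply. There were 13 planned comparisons and 3 added after seeing the data. The ratio of myosin genes and the pairs of genes were tested by permutation within groups or strata with scipy 1.17.1, with 100000 permutations for pairs.

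Groups were taken from sample titles. Labels tie no samples to litters or days, so p-values reflect the spread among these hearts, which may be technical in part. Replicate numbers did not in general pair samples across groups, but several length-tilted libraries shared deviations. No replicates agreed within sampling noise (chi-square per degree of freedom 8.9 to 50.8). Named genes were the 5 members, the 4 genes most like each by Pearson r, up to 4 called genes with the smallest p per list, a few always named pathway genes, and Sesn2; Mhrt and Myom1 were added after their values were seen. Members and lists were chosen with earlier results of these data known.

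The steps were tested on simulated data. For IR in young WT (13735 genes) they found 69% of the genes altered 2-fold and 94% of those altered 4-fold, with 7 false calls. The averaged IR comparison, in which only the young arm had been altered so that the true averaged change was smaller, called 11% and 72% of the same genes, with 3 false calls. For the difference between aged and young responses (13735 genes) they found 39% and 86%, with 7 false calls. The altered genes were drawn at random, each with its own spread. Detection at the wide spread of Myh7, Nppb, Nppa and Acta1 was not measured, so these shares do not describe those members. Alternatives were DESeq2 1.42.0 (Wald test, or its size factors), raw totals, no filter, only the groups compared, a replicate block, a covariate for length slope, leaving out each library, and leaving out the 6 length-tilted libraries. For the ratio of Myh7 to Myh6, medians in place of means were also tried.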

Additional observations from a re-analysis of the deposited data

How the results depend on the processing

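The number of members called moved with the settings. It was 1 in place of 0 for IR in young WT with DESeq2, for Sesn2-KO against young or aged WT in sham hearts with DESeq2, with the length slope and with only the groups compared, and for Sesn2-KO against young WT in IR hearts with DESeq2. For Sesn2-KO against young WT over both kinds of surgery it was 1 in place of 2 with no filter, with the length slope, without the length-tilted libraries and with only the groups compared. Without the length-tilted libraries it was 0 for IR in aged WT, 1 for the averaged IR comparison and 0 for Sesn2-KO against aged WT over both kinds of surgery, and the log2 ratio of Myh7 to Myh6 differed from young WT by 2.84 in aged WT and by 4.11 in Sesn2-KO, each with exact p = 0.0556, the smallest p that 2 hearts against 2 in each kind of surgery allow. Leaving out each heart gave 0 to 1 members for IR in young WT, 0 to 1 in aged WT, 2 to 4 for the averaged IR comparison, and 1 to 2 and 0 to 1 for Sesn2-KO against young and against aged WT over both kinds of surgery. The log2 ratio differences then ran from 1.67 to 2.58 (aged against young WT), 0.91 to 1.66 (Sesn2-KO against aged WT), 3.02 to 3.93 (Sesn2-KO against young WT) and 0.48 to 1.10 (IR). These fits hold fewer libraries; other causes were not tested. Of the single-gene results, 84 leave-one-out values and 34 others lost a call, 8 and 15 gained one, and 56 and 21 changed sign, against 1094 and 659 that kept direction and call. With 3 hearts a group, the spread of Myh7, Nppb, Nppa and Acta1, not depth, limits what can be detected.

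Replicate numbers did not in general pair the samples. Of 45 same-numbered pairs, 16 had deviations correlated above 0.1 (median 0.029, from -0.389 to 0.72), against a median of 0.003 in 90 other pairs. Length-tilted libraries were an exception. Those numbered 3 correlated with one another at 0.376 to 0.72, and those numbered 1 at 0.476. Between length-tilted libraries of different numbers the correlation was 0.076 to 0.472. The cause of these shared deviations was not tested. With the replicate block, 2 members were called in the averaged IR comparison, 1 for IR in aged WT, 2 and 1 for Sesn2-KO against young and aged WT over both kinds of surgery, and 0 in the others. Pairing cannot change a mean difference, so the ratio differences stayed at 0.79, 2.11, 3.46 and 1.35. Their exact p under that pairing were 0.152, 0.0313, 0.0313 and 0.0625. For a comparison between backgrounds, 0.0313 is the smallest p that this paired test allows. The block ended the averaged IR call of Nppb (1.09, adjusted p = 0.0501) and the Sesn2-KO call of Pde5a, and it added calls of Myl7 in both comparisons and of Myl4 in Sesn2-KO. Under the block, Myh7 for IR in Sesn2-KO was -0.25 and Npr1 after IR -0.0089.

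Values that changed sign were all uncalled. Without the length-tilted libraries Myh7 was -0.42 for IR in aged WT and -0.69 averaged, Nppa -0.15 for aged minus young WT, and Corin 0.027 after IR and -0.10 in Sesn2-KO. With the length slope Nppa was -0.0028 (aged minus young WT), Corin 0.054 and Npr1 -0.14 after IR, and Furin 0.066 and Actc1 0.011 in Sesn2-KO. Raw totals gave Nppa -0.026 (aged minus young WT) and Myh6 0.016 (Sesn2-KO minus young WT), and no filter Nppa -0.0035 (aged minus young WT) and Npr1 -0.025. DESeq2 size factors and the Wald test gave Npr1 -0.010 and -0.0099, and Corin -0.0014 for both. With only the groups compared Corin was -0.013 in Sesn2-KO. Leaving out each heart gave Myh7 -1.41 to 1.31 for IR in young WT, -0.16 to 0.92 in aged WT, -0.75 to 1.01 in Sesn2-KO and -0.33 to 0.58 averaged. Over both kinds of surgery it gave Myh6 -0.10 to 0.044 and Acta1 -0.052 to 0.38 for aged against young WT, and Acta1 -0.18 to 0.29 and -0.31 to 0.12 for Sesn2-KO against young and aged WT. For differences in IR response it gave Myh6 -0.26 to 0.027 and Nppa -0.43 to 0.39 (aged minus young WT) and Myh6 -0.13 to 0.15 and Nppa -0.013 to 1.01 (Sesn2-KO minus young WT). It gave Corin -0.096 to 0.042 and Npr1 -0.11 to 0.058 after IR, Corin -0.086 to 0.12, Furin -0.28 to 0.025 and Actc1 -0.16 to 0.035 in Sesn2-KO, and Myh6 over the cardiomyocyte markers -0.10 to 0.0024 for aged against young WT.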
